A study of Geissois pruinosa and Geissois racemosa with 6 samples.

Results

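The subject is the set of 79 contigs, of 54969 in all, that were most abundant in the leaves of the plants sequenced. A contig is an assembled transcript sequence. Its level is given as CPM, the number of counts per 1000000 counts of the library, and a contig belongs to the set when its mean over the 6 libraries was 1000 CPM or more. The levels themselves thus chose the contigs, and their height is a description with no test. Leaf polyadenylated RNA came from 6 plants of the genus Geissois (Cunoniaceae) that grew wild in New Caledonia, 1 library per plant. The 3 Geissois pruinosa plants, labelled as nickel hyperaccumulators, were sampled on 11 March at 3 sites of Mont-Dore. The 3 Geissois racemosa plants, labelled as not accumulating nickel, were sampled on 11 June (plant 1, at Mont Mou in Paita) and 12 June (plants 2 and 3, in Sarramea and at Col Amieu), in the same year. Counts of both are per contig of a G. pruinosa assembly. The labels name serpentine maquis and rainforest on limestone as habitats without saying which plant grew in which. No age, treatment or genotype is given, and species, site and month changed together, so that these cannot be told apart.

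A nickel hyperaccumulator is a plant that takes up nickel from metal-rich soil and stores it in its leaves at exceptional levels, which calls for transport into the shoot and safe storage, mostly in vacuoles. In leaves in general, a small number of nuclear genes gives a large part of the messenger RNA, among them those for the small subunit of Rubisco, the enzyme that fixes carbon dioxide, and for the chlorophyll-binding proteins of the light-harvesting antennae. Metallothioneins, small proteins that bind metals, can also be abundant in leaves. The contigs here carry numbers and no gene names, so that none of the 79 could be assigned to any of these, and the leaf identity of the samples was not checked against marker genes. All names are Gpru_v1_contig_ followed by a number and are written below without Gpru_v1_.

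Total counts per library ran from 23661301 (racemosa plant 1) to 64908952 (racemosa plant 2), and the number of contigs with no count from 2 (pruinosa plant 2) to 8727 (racemosa plant 1). At this depth each of the 79 contigs had at least 1325 counts in each library, and the counting error of a single value (the inverse square root of its count) was 0.35% at the median and 2.75% at most. Pruinosa plant 2 stands apart in its number of contigs with no count, 2 against 3134 in pruinosa plant 3, the next lowest. The reason was not tested, and values high in pruinosa plant 2 alone are to be read with that limit. Pruinosa plant 3 stands apart in another way. Over the 8311 contigs with 500 counts or more in racemosa plant 1, pruinosa plant 3 was never below 0.294 of the CPM there. Of the same contigs, pruinosa plants 1 and 2 had 1028 and 642 below that ratio, and racemosa plants 2 and 3 had 220 and 136. Over the 28198 contigs with no library under 10 counts, deviations of pruinosa plant 3 from its species mean correlated with those of racemosa plant 1 at r = 0.31, the highest of the 9 pairs across species (a description across contigs). Whether the library of pruinosa plant 3 also holds reads of racemosa plant 1 was not tested, and its values, above all where the other G. pruinosa plants are far lower, are to be read with that limit. Among the 79 contigs the lowest such ratio was 0.400, in contig_4904. Below this value were 6 of the 79 contigs in pruinosa plant 1. There were 4 in pruinosa plant 2 (contig_19, contig_17627, contig_4904 and contig_359, the last named after its value was seen). For racemosa plant 2 there was 1 (contig_401), and for racemosa plant 3 there were 0. The cut-off is the lowest ratio of pruinosa plant 3 itself, and racemosa plants 2 and 3 are of the same species as racemosa plant 1. These counts therefore cannot decide whether pruinosa plant 3 stands apart among the 79. Results that rest on pruinosa plant 3 are therefore given with and without it. Nothing pairs the plants across species.

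The 79 contigs, 0.144% of all contigs, together held between 16.3% and 27.8% of the counts of a library. Their share was 27.8%, 18.7% and 18.0% in pruinosa plants 1, 2 and 3, and 16.3%, 22.1% and 20.1% in racemosa plants 1, 2 and 3. The mean share was 21.5% ± 5.48 (SD, n = 3) for G. pruinosa against 19.5% ± 2.94 (SD, n = 3) for G. racemosa. The species overlapped, and the difference of 2.05 percentage points was smaller than the spread within either species. Without pruinosa plant 1, the highest library, the difference was -0.63 percentage points, with the contigs chosen anew from the other libraries.

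The share is described next by level within the set. The 10 highest contigs of the set held 9.63%, 6.66% and 5.52% in pruinosa plants 1, 2 and 3 and 7.45%, 10.7% and 8.59% in racemosa plants 1, 2 and 3. The 69 contigs below them held 14.3% ± 3.43 (SD, n = 3) for G. pruinosa against 10.6% ± 1.50 (SD, n = 3) for G. racemosa. Every G. pruinosa library exceeded every G. racemosa library in the share of these 69 contigs, the lowest being 12.1% in pruinosa plant 2 and the highest of G. racemosa 11.5% in plant 3. In 5 of these contigs, described below, 1 G. pruinosa plant held over 50% of the summed CPM. Without them the shares were 17.8%, 9.95% and 10.2% in G. pruinosa and 8.61%, 11.1% and 11.3% in G. racemosa, which overlap. The 5 were picked for a high G. pruinosa plant, so leaving them out lowers the G. pruinosa shares more by construction. The share of the 10 highest contigs overlapped between the species.

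**Figure D1:**
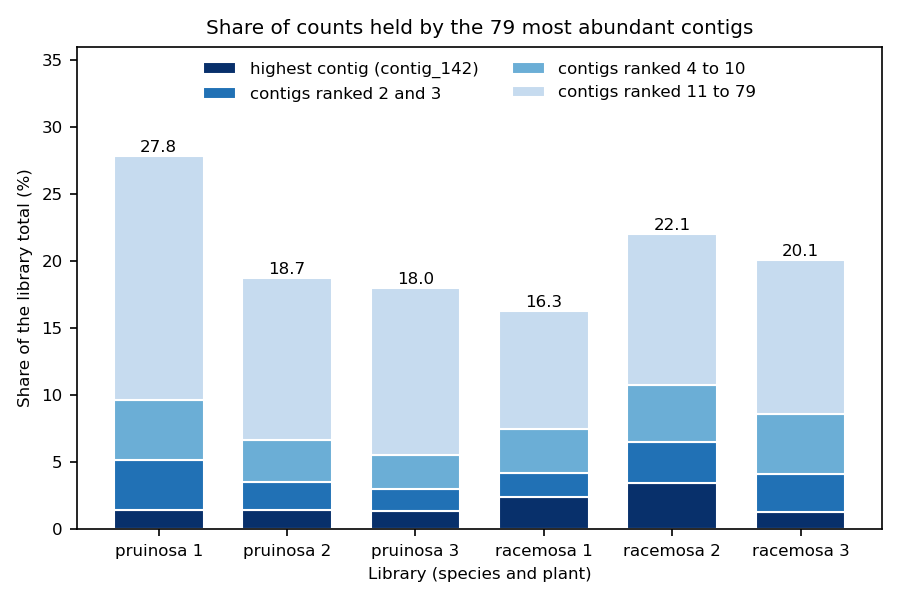
Share of each library total (%, stacked bars from 0) held by the 79 contigs, divided into the highest contig, ranks 2 and 3, ranks 4 to 10 and ranks 11 to 79 by mean CPM; each bar is 1 plant. Pruinosa plant 1 stands highest at 27.8% and racemosa plant 1 lowest at 16.3%.

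The most abundant contig was contig_142. It stood at 14559, 14009 and 13832 CPM in G. pruinosa plants 1, 2 and 3 and at 23952, 34056 and 12555 CPM in G. racemosa plants 1, 2 and 3. The G. pruinosa plants were nearly equal, with a ratio of highest to lowest of 1.05, while the G. racemosa plants spread 2.71-fold and lay on both sides of them. It alone held 3.41% of the counts in racemosa plant 2. The second contig, contig_161, stood at 15591, 9778 and 10562 CPM in G. pruinosa plants 1, 2 and 3 and at 10676, 16281 and 15248 CPM in G. racemosa plants 1, 2 and 3. It was among the 3 steadiest of the set, with a ratio of 1.67 between the highest and the lowest of all 6 libraries. The third, contig_238, stood at 21466, 11182 and 5248 CPM in G. pruinosa plants 1, 2 and 3 and at 7005, 14784 and 13020.4 CPM in G. racemosa plants 1, 2 and 3. It was the highest contig of pruinosa plant 1, and its level in that plant was 4.09 times that in pruinosa plant 3.

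The next 4 contigs were contig_8, contig_329, contig_295 and contig_209. Contig_8 stood at 11231, 5338 and 7113 CPM in G. pruinosa plants 1, 2 and 3 and at 5305, 6794 and 8029 CPM in G. racemosa plants 1, 2 and 3. Contig_329 stood at 6618, 8086 and 3254 CPM in G. pruinosa plants 1, 2 and 3 and at 6808, 7385 and 5947 CPM in G. racemosa plants 1, 2 and 3. In both contigs the species overlapped. Contig_295 stood at 4065, 4704 and 2742 CPM in G. pruinosa plants 1, 2 and 3 and at 4579.6, 7179 and 8285 CPM in G. racemosa plants 1, 2 and 3, and only racemosa plant 1 lay within the range of G. pruinosa. Contig_209 stood at 9058, 2703 and 2408 CPM in G. pruinosa plants 1, 2 and 3 and at 4179.6, 7209 and 5609 CPM in G. racemosa plants 1, 2 and 3. Pruinosa plant 1 was its highest library, and the other G. pruinosa plants were its lowest.

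The last 3 of the 10 highest were contig_208, contig_245 and contig_19. Contig_208 stood at 8959.8, 4322 and 4299.6 CPM in G. pruinosa plants 1, 2 and 3 and at 2476, 4957 and 5921 CPM in G. racemosa plants 1, 2 and 3, so that its highest and lowest libraries were pruinosa plant 1 and racemosa plant 1. Contig_245 stood at 2831, 5438 and 2869 CPM in G. pruinosa plants 1, 2 and 3 and at 3785, 3753 and 5851 CPM in G. racemosa plants 1, 2 and 3, with overlap between the species. Contig_19 stood at 1928, 1028 and 2833 CPM in G. pruinosa plants 1, 2 and 3 and at 5762, 4949.8 and 5413 CPM in G. racemosa plants 1, 2 and 3. It was the only one of the 10 whose species did not overlap, with each G. racemosa plant above each G. pruinosa plant.

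The order of the highest contigs was partly shared by the species. Ranked by species mean, contig_142 was first in both, and 7 contigs were common to the top 10, 13 to the top 20 and 33 to the top 50. Over single libraries, contig_142 was first in 4 of the 6, contig_238 in pruinosa plant 1 and contig_161 in racemosa plant 3. In all, 22 contigs entered the top 10 of at least 1 library, and 21 of them belong to the set. Only 4 were in the top 10 of every library, namely contig_142, contig_161, contig_238 and contig_8 (named after their values were seen). Of the 10 highest contigs of the set, between 5 and 7 were in the top 10 of a G. pruinosa library and 9 or 10 in that of a G. racemosa library.

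Further down, the lists differed more. The top 79 of the 6 libraries comprised 175 contigs, of which 33 were in the top 79 of every library, all of them in the set. Over pairs of libraries, the top 79 shared 54, 54 and 62 contigs within G. racemosa and 42, 48 and 50 within G. pruinosa. Between the species they shared from 40 (pruinosa plant 2 with racemosa plant 1) to 57 (pruinosa plant 1 with racemosa plant 3). Pairs of G. pruinosa plants thus shared no more of their highest contigs than pairs across species did. Over the 79 contigs, Spearman's rho between CPM values was 0.78, 0.86 and 0.87 within G. racemosa, 0.45, 0.52 and 0.61 within G. pruinosa and between 0.31 and 0.53 for the 9 pairs across species. These correlations are across contigs chosen for their level and describe the libraries only.

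Of the 79 contigs, 54 had a mean of 1000 CPM or more in both species, 17 only in G. pruinosa and 8 only in G. racemosa, so that the set is not uniformly abundant in both. The 8 were contig_17627, contig_4904, contig_1658, contig_609, contig_1249, contig_394, contig_347 and contig_197, of which contig_1658, contig_609, contig_1249 and contig_394 were named after their values were seen. In single libraries, between 46 (racemosa plant 1) and 67 (racemosa plant 3) of the 79 reached 1000 CPM, and 31 did so in all 6. The median change of rank between the species was 14 places. For 33 contigs it was 10 places or fewer, and for 8 it exceeded 100 places. Contig_17627 ranked 16 in G. racemosa and 261 in G. pruinosa, and contig_4904 ranked 33 and 232. In the opposite direction, contig_382, contig_3251, contig_115 and contig_96 ranked 18, 24, 15 and 30 in G. pruinosa and 277, 359, 273 and 235 in G. racemosa, and contig_374 ranked 8 and 111. Contig_401 ranked 29 and 155. These 8 contigs are those past 100 places.

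**Figure D2:**
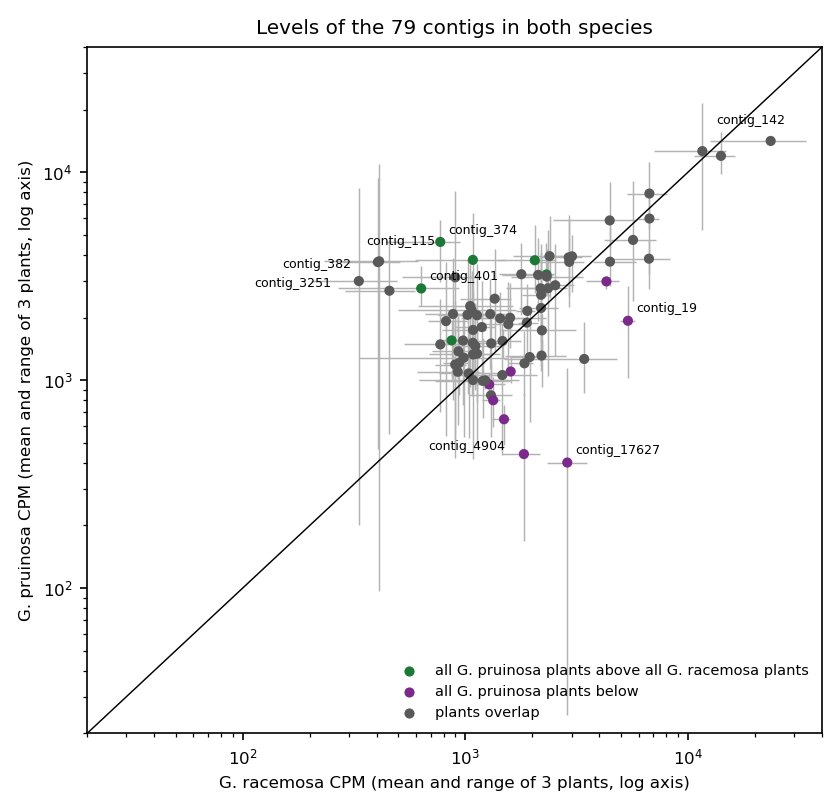
Mean CPM of each of the 79 contigs in G. pruinosa (vertical) against G. racemosa (horizontal), both on log axes, with lines from the lowest to the highest of 3 plants and a diagonal of equal levels. Colours mark the 6 contigs with all G. pruinosa plants above and the 8 with all below the G. racemosa plants.

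Whether a contig chosen from 5 plants was also high in the plant left out was examined for each plant in turn, a library that the choice did not use. Of 78 contigs chosen without pruinosa plant 1, 57 (73.1%) reached 1000 CPM in that plant. The corresponding shares were 69.6% for pruinosa plant 2, 67.5% for pruinosa plant 3, 55.1% for racemosa plant 1, 75.0% for racemosa plant 2 and 80.5% for racemosa plant 3. The median level in the plant left out ran from 1230 CPM in racemosa plant 1 to 2665 CPM in pruinosa plant 1. Between 5 and 12 of the chosen contigs were under 500 CPM in the plant left out, with the largest number in pruinosa plant 1. Pruinosa plant 1 was therefore at once the plant with the highest median and the one with the most contigs under 500 CPM.

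The plants of G. pruinosa differed more from each other at these contigs than those of G. racemosa. The ratio of the highest to the lowest plant had a median over the 79 contigs of 2.49 in G. pruinosa and 1.65 in G. racemosa, and it was wider in G. pruinosa for 62 of the 79 (78.5%). Among the 1681 contigs with a mean of 100 to 1000 CPM the medians were 1.79 and 1.51, and 63.1% were wider in G. pruinosa. Among the 28198 contigs that had 10 counts or more in each library they were 1.91 and 1.70, and 58.2% were wider. A spread over 3-fold was found in 30 of the 79 contigs (38.0%) in G. pruinosa and in 4 (5.06%) in G. racemosa, against 23.4% and 15.3% of the 28198. A mean over all plants can pass 1000 CPM through 1 very high plant, so the choice itself favours a wide spread. Without the 5 contigs that held over 50% of their summed CPM in 1 library, the medians were 2.45 and 1.63.

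Much of the spread in G. pruinosa lay between plant 1 and the others. For pairs of plants, the median absolute log2 ratio over the 79 contigs was 0.99 for pruinosa plants 1 and 2, 0.93 for plants 1 and 3 and 0.55 for plants 2 and 3. The G. racemosa pairs had 0.57 (plants 1 and 2), 0.59 (plants 1 and 3) and 0.28 (plants 2 and 3). Without pruinosa plant 1 the median ratio of highest to lowest was 1.46 in the 2 remaining plants, below the 1.65 of the 3 G. racemosa plants. It was 1.91 without pruinosa plant 2 and 1.99 without pruinosa plant 3. However, 2 plants give a smaller ratio than 3 by construction. Pruinosa plant 1 was the highest of the 6 libraries for 46 of the 79 contigs (58.2%), against 17.8% of the contigs with 100 to 1000 CPM. It exceeded the mean of pruinosa plants 2 and 3 in 60 of the 79 (75.9%), with a median ratio of 1.81. In the contigs with 100 to 1000 CPM this was so for 34.7%, with a median ratio of 0.831. The lowest library was racemosa plant 1 for 27 and pruinosa plant 3 for 22 of the 79 contigs. CPM values of a library add up to a fixed sum, so a library in which these contigs take a larger share leaves less for the others.

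**Figure D3:**
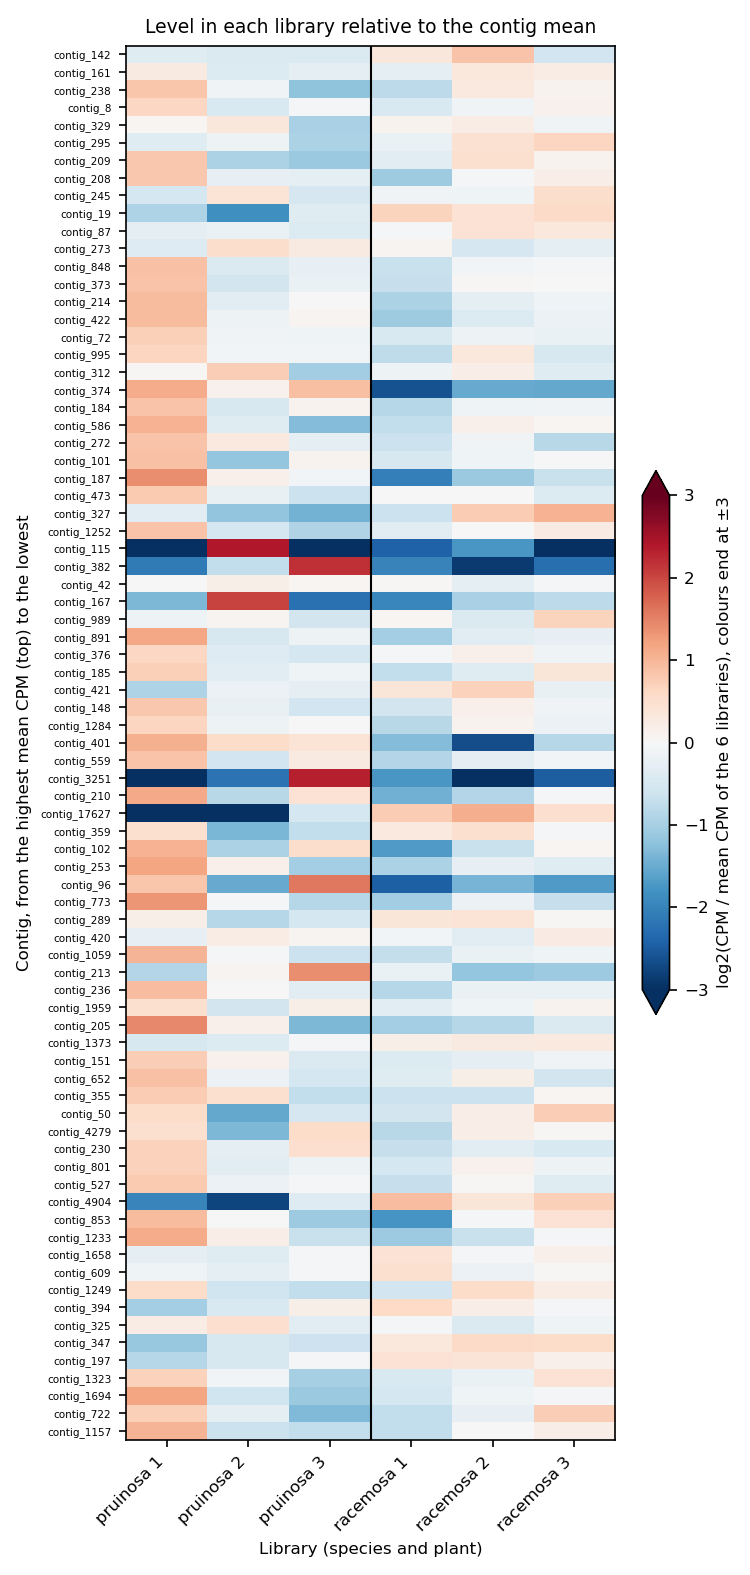
log2 of the CPM in each library (columns) over the mean of the 6 libraries, for the 79 contigs (rows, highest mean CPM at the top); red is above and blue below the mean, and colours end at ±3. The column of pruinosa plant 1 is the highest in 46 rows, and single dark red cells mark contigs high in 1 plant.

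In 5 contigs, 1 plant held over 50% of the summed CPM, and it was a G. pruinosa plant each time. Contig_115 stood at 96.4, 10906 and 182 CPM in G. pruinosa plants 1, 2 and 3 and at 385, 613 and 232 CPM in G. racemosa plants 1, 2 and 3. Plant 2 thus held 87.8% of its summed CPM, and the other G. pruinosa plants were the lowest of all 6 libraries. Contig_167 had the same high plant, with 790.0, 8152 and 424 CPM against 517, 1019 and 1168 CPM in the same order of plants. Pruinosa plant 3 was the high library of contig_382, with 468, 1221 and 9397 CPM against 509, 279.8 and 425 CPM, and of contig_3251, with 201, 357 and 8429.6 CPM against 495, 202 and 299.5 CPM. In racemosa plant 1 the levels of these contigs were 509 and 495 CPM, the highest of the G. racemosa plants in both. Contig_96 was high in pruinosa plants 3 and 1, with 2782, 553 and 4738 CPM against 287, 594 and 487 CPM. Without their highest library the means of the 5 contigs were 302, 784, 581, 311 and 941 CPM, in the order given, all under the 1000 CPM that defined the set. This is not particular to the 5: other contigs near the limit also fell under it, such as contig_1694 (775 CPM) and contig_1157 (806 CPM). Together the 5 contigs with 1 dominant plant held 0.434%, 2.12% and 2.32% of the counts in pruinosa plants 1, 2 and 3 and from 0.219% to 0.271% in the G. racemosa plants.

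The widest spreads within G. racemosa were smaller. Contig_853 stood at 333, 1079 and 1537 CPM in G. racemosa plants 1, 2 and 3, a ratio of 4.61, and at 2182, 1128 and 532 CPM in G. pruinosa plants 1, 2 and 3, a ratio of 4.1. Contig_401 and contig_102 followed with ratios of 3.51 and 3.37 within G. racemosa. Racemosa plant 1 was the lowest of its species in contig_853 and contig_102, and plant 2 was in contig_401. The G. racemosa plants differed by more than 10-fold in 0 of the 79 contigs and the G. pruinosa plants in 5. The widest were contig_115 (a ratio of 113), contig_17627 (46.7) and contig_3251 (41.8). Of the 5, contig_17627, contig_3251 and contig_382 passed 10-fold through pruinosa plant 3, to which the limit given above applies. Pruinosa plants 1 and 2 stood at 35.9 and 24.5 CPM in contig_17627, 201 and 357 CPM in contig_3251 and 468 and 1221 CPM in contig_382.

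At the other end, 8 of the 79 contigs kept all 6 libraries within 2-fold and 33 within 3-fold. The steadiest was contig_42, which stood at 2055, 2299 and 2102 CPM in G. pruinosa plants 1, 2 and 3 and at 2059, 1694 and 1942 CPM in G. racemosa plants 1, 2 and 3. Its ratio of highest to lowest was 1.36, and the species overlapped. Contig_420 stood at 1271, 1768 and 1588 CPM in G. pruinosa plants 1, 2 and 3 and at 1429.6, 1195 and 1782 CPM in G. racemosa plants 1, 2 and 3, a ratio of 1.49. The third was contig_161, described above.

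**Figure D4:**
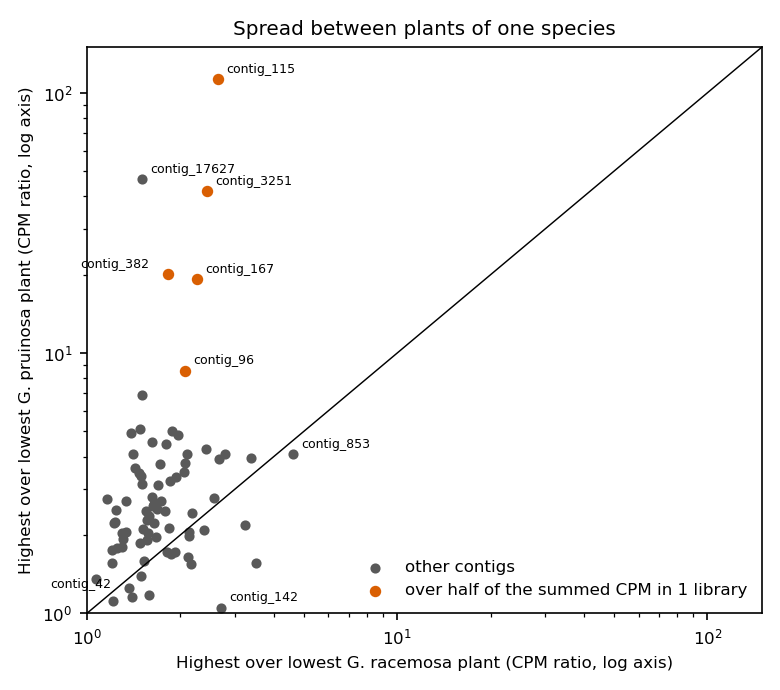
Ratio of the highest to the lowest plant in G. pruinosa (vertical) against G. racemosa (horizontal) for the 79 contigs, on log axes with a diagonal of equal spread; orange points are the 5 contigs with over 50% of the summed CPM in 1 library. Of the 79 points 62 lie above the diagonal, and contig_115 reaches a ratio of 113 in G. pruinosa.

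The comparison of the nickel hyperaccumulator with the species that does not accumulate nickel called none of the 79 contigs. It was made with edgeR's quasi-likelihood test over 43447 contigs, with Benjamini-Hochberg adjustment over all of them. At an adjusted p under 0.05, 0 of the 79 were called, against 1.13% of all contigs tested (1.11% higher and 0.0207% lower in G. pruinosa). Where so few contigs were called, a count of 0 does not show that the species were alike at the 79. At an unadjusted p under 0.05 there were 10 of the 79 (12.7%), against 18.2% of all contigs tested. Of the 1681 contigs with 100 to 1000 CPM, edgeR called 12, and 399 (23.7%) had an unadjusted p under 0.05. DESeq2 called 8 of the 77 contigs to which it gave a p (10.4%, 5 higher and 3 lower in G. pruinosa), against 9.64% of all contigs (6.62% higher and 3.01% lower). The 5 were contig_374, contig_187 (named after its values were seen), contig_382, contig_401 and contig_96, and the 3 were contig_19, contig_4904 and contig_347. Limma-voom called 1, contig_374, which was higher in G. pruinosa, against 0.916% of all contigs (0.891% higher and 0.0253% lower). The shares called are thus near or below the background in each of these tests.

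Log2 fold changes (G. pruinosa minus G. racemosa, on TMM-scaled counts) exceeded 1 in size for 18 of the 79 contigs (22.8%), against 30.3% of all contigs tested. In the 1681 contigs with 100 to 1000 CPM the share was 21.2%, so the set was near the contigs next below it in level. The standard error of the log2 fold changes had a median of 0.50 in the set, 0.56 over all contigs tested and 0.34 in those 1681. The fold changes were above 0 in 54 and below 0 in 25 of the 79, with a median of 0.34, against a median of 0.10 over all contigs tested. Without pruinosa plant 1 the median of the set was -0.23, against 0.03 over all contigs tested in that fit. Without racemosa plant 1 it was 0.09, against 0.13. Leaving out any of the other plants gave medians of the set from 0.25 to 0.50. The set was not chosen anew for these fits. The direction thus depended on single plants of both species.

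By level alone, the species did not overlap in 14 of the 79 contigs (17.7%), against 25.2% of all contigs tested. In 6 each G. pruinosa plant was above each G. racemosa plant (14.7% of all contigs), and in 8 each was below (10.4% of all contigs). The 6 were contig_374, contig_401, contig_187, contig_422, contig_72 and contig_230, and the 8 were contig_19, contig_17627, contig_4904, contig_347, contig_197, contig_87, contig_1373 and contig_1658. Those outside the naming rule were named after their values were seen. With RLE-scaled values 3 were above and 10 below, against 14.0% and 11.7% of all contigs, and with TMM-scaled values 5 were above and 10 below, against 14.7% and 10.9%. Without pruinosa plant 3, 16 contigs were apart with G. pruinosa above (20.3%) and 9 with it below (11.4%), against 25.3% and 18.3% of all contigs, since fewer plants overlap less by construction.

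The gap between the species was wide in some of these contigs and narrow in others. Contig_187 stood at 6347, 2720.2 and 2291 CPM in G. pruinosa plants 1, 2 and 3 and at 591, 1131 and 1520.3 CPM in G. racemosa plants 1, 2 and 3, and its log2 fold change was 1.82 (standard error 0.59, edgeR adjusted p = 0.171). Contig_422 stood at 5599, 2629 and 3085 CPM in G. pruinosa plants 1, 2 and 3 and at 1395, 2194 and 2565 CPM in G. racemosa plants 1, 2 and 3, so that pruinosa plant 2 was only just above racemosa plant 3. Contig_72 had a still narrower gap, with 4546, 2578 and 2539.9 CPM against 2007, 2505 and 2428 CPM in the same order of plants. Contig_230 was similar, with 1939.5, 1009 and 1709.8 CPM against 745, 977 and 880.4 CPM, where pruinosa plant 2 and racemosa plant 2 nearly met. In these 3 contigs the highest value was that of pruinosa plant 1.

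On the other side, contig_87 stood at 3016, 3184 and 2749.5 CPM in G. pruinosa plants 1, 2 and 3 and at 3496, 4898 and 4512 CPM in G. racemosa plants 1, 2 and 3. Contig_1373 stood at 972, 1015 and 1313 CPM in G. pruinosa plants 1, 2 and 3 and at 1532, 1620.4 and 1643 CPM in G. racemosa plants 1, 2 and 3. Contig_1658 stood at 919, 863 and 1078 CPM in G. pruinosa plants 1, 2 and 3 and at 1499.7, 1096 and 1242 CPM in G. racemosa plants 1, 2 and 3, and contig_197 at 593, 770.2 and 1037 CPM in G. pruinosa plants 1, 2 and 3 and at 1431, 1387 and 1183 CPM in G. racemosa plants 1, 2 and 3. In these 4 the log2 fold changes lay between -0.77 (contig_197) and -0.44 (contig_1658), which are smaller than those of the contigs described next.

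Among contigs with larger levels in G. pruinosa, contig_374 came closest to a call. It stood at 5879, 2959.7 and 5019.9 CPM in G. pruinosa plants 1, 2 and 3 and at 439.9, 942 and 933 CPM in G. racemosa plants 1, 2 and 3. Every G. pruinosa plant was at least 3 times as high as any G. racemosa plant, and the means were 4619 ± 1500.1 CPM (SD, n = 3) for G. pruinosa against 772 ± 287 CPM (SD, n = 3) for G. racemosa. Its log2 fold change was 2.57 (standard error 0.52, edgeR adjusted p = 0.069), and 2.48 (standard error 0.54, edgeR adjusted p = 0.0527) without pruinosa plant 3. Contig_401 stood at 3544, 2472 and 2261 CPM in G. pruinosa plants 1, 2 and 3 and at 691, 268 and 941 CPM in G. racemosa plants 1, 2 and 3, again without overlap. Its log2 fold change was 2.15 (standard error 0.50, edgeR adjusted p = 0.0942). The other 4 of the 5 largest positive log2 fold changes belonged to contig_382, contig_3251, contig_115 and contig_96, the contigs with 1 dominant plant described above. Their values were 3.19 (standard error 1.06, edgeR adjusted p = 0.179), 3.18 (standard error 1.36, edgeR adjusted p = 0.272), 3.00 (standard error 1.59, edgeR adjusted p = 0.367) and 2.55 (standard error 0.78, edgeR adjusted p = 0.157), in that order. In all 4 the species overlapped. Without the dominant plant, contig_3251 had -0.33 (without pruinosa plant 3) and contig_115 had -1.57 (without pruinosa plant 2), so that their direction rests on 1 library. Contig_382 and contig_96 kept their direction without pruinosa plant 3, at 0.96 (standard error 0.42, edgeR adjusted p = 0.221) and 1.87 (standard error 0.72, edgeR adjusted p = 0.178).

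Among contigs with larger levels in G. racemosa, contig_17627 had the largest difference. It stood at 35.9, 24.5 and 1144 CPM in G. pruinosa plants 1, 2 and 3 and at 2774, 3507 and 2328 CPM in G. racemosa plants 1, 2 and 3. Pruinosa plants 1 and 2 were far below all others, and pruinosa plant 3 lay between them and G. racemosa, at 0.412 of the level in racemosa plant 1, a value to which the limit on that library given above applies. With all plants its log2 fold change was -2.86 (standard error 1.38, edgeR adjusted p = 0.325). Without pruinosa plant 3 it was -6.63 (standard error 0.58, edgeR adjusted p = 0.011). Contig_4904 had the same order of plants, with 287, 169 and 867 CPM against 2168, 1462 and 1869 CPM, and pruinosa plant 3 at 0.400 of racemosa plant 1. Its log2 fold change was -2.05 (standard error 0.63, edgeR adjusted p = 0.156) with all plants and -3.03 (standard error 0.45, edgeR adjusted p = 0.0249) without pruinosa plant 3. These 2 contigs were the only ones of the 79 called by edgeR without pruinosa plant 3 (2.53%, 0 higher and 2 lower in G. pruinosa), where 4.55% of all contigs were called (2.85% higher and 1.71% lower). Both contigs are, with contig_3251 and contig_4279, the only ones of the set numbered above 2000. In tests added after seeing the data, DESeq2 without pruinosa plant 3 called 5 higher and 6 lower (13.9%), against 15.1% of all contigs (7.99% higher and 7.11% lower). The 5 were contig_374, contig_187, contig_115, contig_401 and contig_205 (the last named after its values were seen). The 6 were contig_17627, contig_4904, contig_19, contig_347, contig_197 and contig_394. The call of contig_115 rests on pruinosa plant 2, since pruinosa plant 1 was below every G. racemosa plant, and its limma-voom adjusted p was 0.640 in the same plants. Limma-voom without pruinosa plant 3 called 2 higher and 5 lower (8.86%), against 6.67% of all contigs (4.11% higher and 2.55% lower). The 2 were contig_374 and contig_401, and the 5 were contig_17627, contig_4904, contig_19, contig_347 and contig_197.

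Contig_19, which is also one of the 10 highest, had means of 1929.9 ± 903 CPM (SD, n = 3) for G. pruinosa against 5375 ± 407 CPM (SD, n = 3) for G. racemosa and a log2 fold change of -1.48 (standard error 0.48, edgeR adjusted p = 0.173). Contig_327 stood at 1896, 1026 and 870.4 CPM in G. pruinosa plants 1, 2 and 3 and at 1486, 3968 and 4804 CPM in G. racemosa plants 1, 2 and 3. Its species overlapped through racemosa plant 1, and its log2 fold change was -1.44 (standard error 0.57, edgeR adjusted p = 0.243). Contig_347 stood at 489.7, 762 and 693 CPM in G. pruinosa plants 1, 2 and 3 and at 1322, 1592 and 1561 CPM in G. racemosa plants 1, 2 and 3, without overlap and with a narrow spread in both species. Its log2 fold change was -1.25 (standard error 0.31, edgeR adjusted p = 0.111). Leaving out pruinosa plant 3, the log2 fold changes of contig_19, contig_327 and contig_347 were -1.88, -1.26 and -1.35 (edgeR adjusted p = 0.0705, 0.280 and 0.0726). None of these 3 contigs passed the threshold in edgeR with all plants or with any 1 plant left out.

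**Figure D5:**
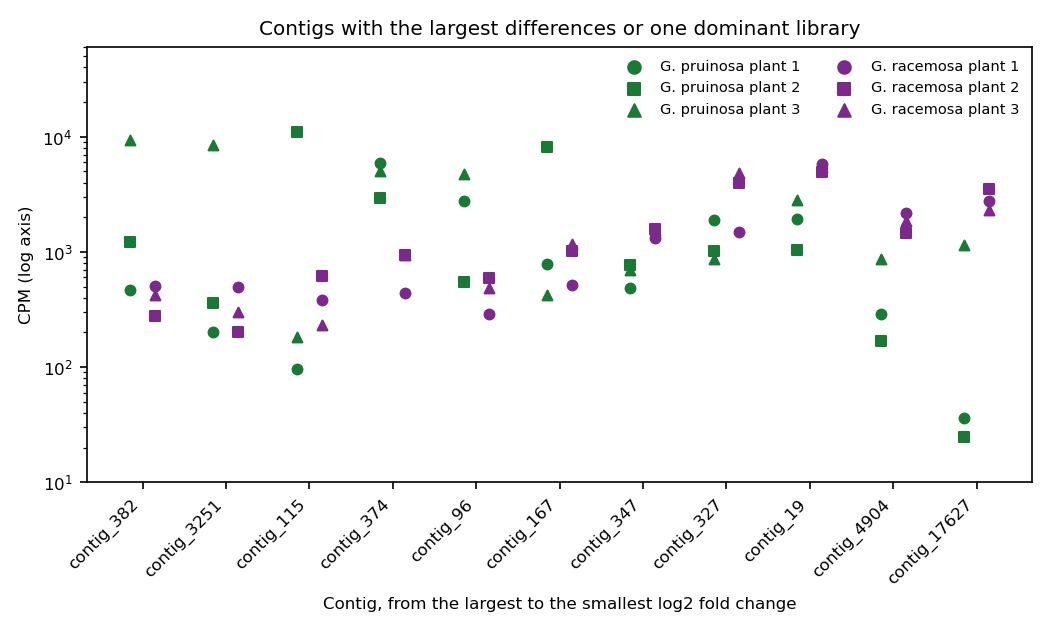
CPM in each plant (log axis; symbols give the plant number, green G. pruinosa and purple G. racemosa) for the 10 contigs with the largest log2 fold changes and contig_167, ordered by log2 fold change. Contig_382, contig_3251, contig_115 and contig_167 each show 1 G. pruinosa plant far above the rest, and contig_17627 shows pruinosa plant 3 at 1144 CPM between the other G. pruinosa plants and G. racemosa.

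Some contigs of the set kept nearly the same ratio to each other in every plant. Over the 3081 pairs of the 79 contigs, the SD of the log2 ratio over the 6 libraries had a median of 0.80. The smallest was 0.08, for contig_848 and contig_373. Contig_848 stood at 6254, 2538 and 2891 CPM in G. pruinosa plants 1, 2 and 3 and at 2154, 3239 and 3349 CPM in G. racemosa plants 1, 2 and 3. Contig_373 stood at 5974, 2249 and 2894 CPM in G. pruinosa plants 1, 2 and 3 and at 2064, 3412 and 3307 CPM in G. racemosa plants 1, 2 and 3, so that their ratio stayed between 0.949 and 1.13. The next pairs were contig_214 with contig_184 (SD 0.11, ratio from 1.07 to 1.29) and contig_184 with contig_559 (SD 0.11, ratio from 1.42 to 1.77). All 5 contigs were highest in pruinosa plant 1 and lowest in racemosa plant 1. The files do not show whether such contigs are pieces or copies of one gene, which an assembly can hold as separate contigs. The pattern of contig_142 was followed less closely: nearest were contig_421, contig_289 and contig_197, with SDs of the log2 ratio of 0.34, 0.46 and 0.48 over the 6 libraries. Contig_421 stood at 922, 1561 and 1453 CPM in G. pruinosa plants 1, 2 and 3 and at 2268, 2819 and 1512 CPM in G. racemosa plants 1, 2 and 3, highest in racemosa plant 2 as contig_142 was. These pairs were picked as the closest of many, and the values are a description.

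The set lay at the low end of the contig numbers, whose meaning is not given in the sources used here. Of the 79 contigs, 51 were numbered 500 or lower and 64 were numbered 1000 or lower, whereas the numbers run to 54969. Over all contigs, Spearman's rho between the number and the mean CPM was -0.77, a description across contigs, and within the set it was -0.44. The 4 contigs numbered above 2000 were contig_3251, contig_4279, contig_4904 and contig_17627 (contig_4279 named after its value was seen), and contig_4279 stood at 1720.5, 481 and 1817 CPM in G. pruinosa plants 1, 2 and 3 and at 688, 1426 and 1269 CPM in G. racemosa plants 1, 2 and 3.

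The limit of 1000 CPM falls within a continuous range of levels. Just inside were contig_1694, contig_722 and contig_1157 with means of 1044, 1041 and 1011 CPM. Just outside were contig_260, contig_44 and contig_1713 with 974, 969 and 965 CPM. Pruinosa plant 1 was the highest or second highest library in each of the 3 just inside, with 2389.9, 1719 and 2037 CPM.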

How the data were processed

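Leaf polyadenylated RNA of 6 wild plants was sequenced as stranded Illumina libraries, per the labels' protocols. The authors deposited raw read counts per contig, 1 file per library, with the same 54969 contigs of the de novo G. pruinosa assembly in each; no aligner or counter is named, nor how reads that fit more than 1 contig were handled. Reads of G. racemosa are counted only where they match G. pruinosa contigs, which can lower their counts. Contig lengths were not used, so levels of different contigs are not per length, and the order of contigs by CPM depends on length too.

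Plain CPM (count over library total) gave members, shares, ranks and ratios. Species were tested on the counts with edgeR 4.0.16 in R 4.3.3, with species as the only term. The settings were TMM scaling, filterByExpr with its default minimum count of 10, glmQLFit and glmQLFTest. The code was also run on simulated counts drawn from edgeR's own fitted levels and spread. These had no built-in dominant plant or mixed library, so that run cannot speak for such cases. Standard errors are the absolute log2 fold change over the square root of F. DESeq2 1.42.0, limma-voom (limma 3.58.1), other scalings and filters, a replicate block and leaving out each library were alternatives. The p-values measure the spread between plants sampled at different sites. Counting errors cover counting only, since reads without molecular identifiers are not independent molecules.

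The members and lists were chosen with earlier results of these data known. Contigs were named by a rule: the 10 highest, the 5 largest log2 fold changes each way, the 3 widest in each species, the 3 steadiest, those nearest the limit, those with over 50% of their summed CPM in 1 library, the 3 closest pairs and the 3 contigs closest to the highest. Other names were added after their values were seen, and the text says so.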

Additional observations from a re-analysis of the deposited data

How the results depend on the processing

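With 3 plants per species, single plants decided much of what was seen. No contig of the set was called by edgeR with all plants under RLE, upper-quartile or no scaling, without a filter or with at least 10 counts in every library. Over all contigs these fits called 457, 420 and 494 of 43447, 356 of 54968 and 25 of 28198, in that order. DESeq2 called 5 higher and 3 lower in G. pruinosa (against 6.62% and 3.01% of all contigs), limma-voom 1 and 0 (against 0.891% and 0.0253%). Leaving out 1 library at a time gave 0 higher and from 0 to 2 lower, the 2 without pruinosa 3, where 4.55% of all contigs were called. Over all contigs the calls were 367 of 46105 without pruinosa 1 and 41 of 44100 without pruinosa 2. They were 7 of 47652, 0 of 47260 and 2 of 47182 without racemosa 1, 2 and 3. A count of 0 where so few contigs were called is no result about the set. In fits without pruinosa 3, added after seeing the data, DESeq2 called 5 and 6 (against 7.99% and 7.11% of all contigs). Limma-voom called 2 and 5 there (against 4.11% and 2.55%). The cause of the difference between the tools was not tested. A replicate block on the plant number gave 0 higher and 0 lower, with 6 contigs at an unadjusted p under 0.05. Over all 43447 contigs tested, that fit called 16, with 5501 at an unadjusted p under 0.05. Same-numbered libraries had deviations correlated at -0.26, 0.02 and -0.20, and nothing in the labels pairs the plants. The set had 193 contigs at 500 CPM and 32 at 2000 CPM, from 77 to 80 without one library, and 79 with TMM-scaled CPM; the median in place of the mean kept 67 of the 79. The overlap of the top 50 was 66%, and from 60% to 74% in the alternatives. The difference in share ran from -0.63 to 4.03 percentage points without one library. The spread in G. pruinosa was 1.51 times that in G. racemosa, and from 0.886 (without pruinosa 1) to 2.05 without one library, where leaving out a plant narrows the spread of its species by construction. Without overlap were 6 higher and 8 lower, against 14.7% and 10.4% of all contigs. RLE scaling gave 3 and 10 (against 14.0% and 11.7%), TMM scaling 5 and 10 (against 14.7% and 10.9%) and upper-quartile scaling 4 and 8. Leaving out a library gave from 8 to 16 higher and from 9 to 17 lower, and fewer plants overlap less by construction. The shares of all contigs were 25.3% and 18.3% without pruinosa 3. For the other libraries left out and for upper-quartile scaling they were not computed, so those counts are no result about the set. The median log2 fold change ran from -0.23 to 0.50 without one library. That of contig_115 ran from -1.57 to 3.52 without one library, was 0.58 with limma-voom and 0.32 with the replicate block, and that of contig_3251 from -0.33 to 3.72; the latter was -0.37 with DESeq2 and -0.25 with limma-voom without pruinosa 3. The other 8 of the 10 contigs with the largest log2 fold changes kept their direction in all 16 alternative fits.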

Other observations

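Contigs abundant in only 1 species can miss a limit set on the mean of both. A mean of 1000 CPM or more defined a G. pruinosa list of 81 contigs and a G. racemosa list of 71, of which 54 were shared, 66.7% of the first list and 76.1% of the second. Of these lists, 10 and 9 contigs were outside the set of 79. The following were named after their values were seen. Contig_155 stood at 6.12, 5262 and 217 CPM against 140.1, 57.6 and 66.6 CPM (G. pruinosa plants 1 to 3 against G. racemosa plants 1 to 3), and pruinosa plant 2 was far above all others. Contig_366 stood at 64.3, 94 and 309 CPM against 569, 3402 and 352 CPM, with every G. racemosa plant above every G. pruinosa plant. Contig_1604 stood at 87, 55.8 and 538 CPM against 1143, 1613 and 902 CPM, also without overlap. In both, pruinosa plant 3 was the highest of its species. Of the 81 contigs of the G. pruinosa list, 10 were under 500 CPM in G. racemosa, and of the 71 of the G. racemosa list, 6 were under 500 CPM in G. pruinosa. No cause was tested for any of these values.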
